A study of Mus musculus with 28 samples.

Results

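The genes described here are the protein-coding members of 3 enzyme families that handle foreign compounds, steroids and lipid products in mouse kidney: cytochromes P450 of the CYP2 family, UDP-glucuronosyltransferases (UGT) and cytosolic glutathione S-transferases (GST). They were chosen by symbol alone, as Cyp2 genes with a subfamily letter and number, Ugt1, Ugt2 and Ugt3 genes, and Gst genes of the alpha, kappa, mu, omega, pi, theta and zeta classes. This gave 91 of 53392 genes, 48 CYP2, 21 UGT and 22 GST. RNA was sequenced from kidney cells of FVB mice, all male, that had undergone ischemic kidney injury and received exosomes, a mimic of miR-486-5p or scrambled miRNA. Each treatment was studied in proximal tubular cells, obtained by microdissection, and in endothelial cells, obtained with CD31 microbeads. The exosome and scrambled-miRNA groups held 3 libraries per cell type and the mimic groups 2, 16 libraries in all, with 8.27 to 25.3 M reads assigned to genes. Injured mice left untreated and sham-operated mice, 3 samples per cell type each, enter only through the authors' 12 deposited comparison tables. Per the labels they are samples of an earlier series analysed again, so treatment and series of origin cannot be told apart in any comparison between those groups and the treated ones. The labels do not say that a library number shared by the cell types marks the same mouse, and p-values measure the spread between these libraries.

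CYP2 enzymes oxidise drugs, solvents, steroids and arachidonic acid at the endoplasmic reticulum, with electrons passed on by P450 reductase and cytochrome b5. UGT enzymes attach a sugar to such products, and GST enzymes attach glutathione to reactive ones. In kidney these enzymes are best known from the proximal tubule, the nephron segment that takes up and secretes organic anions and cations. Several mouse kidney members, Cyp2j5 and Cyp2e1 among them, are known for higher expression in males.

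Of the 91 members, 76 had at least 1 read in any of the 16 libraries and 15 had none. A mean level of at least 1 TPM (a level scaled to transcript length and library size) was reached in tubular cells by 13 CYP2, 11 UGT and 18 GST genes, and in endothelial cells by 12, 10 and 17. A mean of at least 100 TPM was reached in tubular cells by 3 CYP2, 4 UGT and 6 GST genes, against 1 of each family in endothelial cells. The filter on low counts was passed by 52 members in tubular cells, 49 in endothelial cells and 54 in the fit of both.

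The cell type labels were checked against marker genes first. All 10 endothelial markers were higher in endothelial libraries, with sums of 25.9 to 59.9 TPM in tubular and 341 to 675 TPM in endothelial libraries. The 12 proximal tubule markers summed to 13330 to 41796 TPM in tubular libraries and to 1540 to 14507 TPM in endothelial libraries, and none was at 0 in any library. Kap, an androgen-responsive kidney transcript, made up 77.6% to 94.0% of that sum in tubular and 76.9% to 91.6% in endothelial libraries, and the other 11 markers summed to 800.0 to 3952 TPM in tubular and 275 to 1654 TPM in endothelial libraries. The 5 thick ascending limb markers summed to 120 to 499 TPM in tubular libraries and to 3607 to 13842 TPM in endothelial libraries. In every endothelial library the thick ascending limb sum exceeded the sum of the endothelial list. In bulk RNA, fewer cells of a type and less RNA per cell cannot be told apart.

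Injury markers differed between libraries of the same treatment. The 9 injured tubule markers, among them Havcr1 (kidney injury molecule), Lcn2 and Spp1, summed to 231, 88.9 and 76.5 TPM in tubular exosome libraries, 113 and 37.4 TPM in mimic libraries and 334, 1141 and 1932 TPM in scrambled-miRNA libraries. Krt20 and Krt19 were at 0 in all 3 tubular exosome libraries, and Krt20 and Lcn2 in mimic library 2. Scrambled-miRNA library 3 was highest in the injury markers and lowest in the proximal tubule markers among the tubular libraries. Several members whose values rest on it are given with and without it.

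In proximal tubular cells, 6 members were higher with exosomes than with scrambled miRNA, and none was lower. The 6 were Ugt2b38, Ugt2b37 and Ugt3a2 of the UGT family, Cyp2j5 and Cyp2j11 of the CYP2 family, and Gstz1. By edgeR's quasi-likelihood test with Benjamini-Hochberg adjustment, this was 6 of 52 members tested, beside 5.13% of all 14913 genes tested (2.72% higher and 2.41% lower). The median log2 fold of the 52 members was 0.14 and that of all genes -0.02. By family the calls were 2 of 19 CYP2, 3 of 15 UGT and 1 of 18 GST genes tested. With DESeq2 the members called were 13, 11 higher and 2 lower, of 1828 genes called in all. In the same comparison edgeR called 3 of 12 proximal tubule markers higher (Kap, Slc7a13 and Slc22a30) and 6 of 9 injured tubule markers lower. The proximal tubule sum was 28796 to 39682 TPM with exosomes and 13330 to 20305 TPM with scrambled miRNA, a separation carried by Kap. The other 11 markers summed to 2508, 2674 and 2094 TPM with exosomes, against 3952, 2034 and 800.0 TPM with scrambled miRNA, and overlapped. The part of these markers in the members' values was not tested.

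The UGT genes called included the most abundant member of all. Ugt2b38 (chr5:87409942-87424203, minus strand, GRCm38), of a subfamily known for glucuronidating steroids, was at 797, 1021 and 878 TPM with exosomes and 799 and 989 TPM with the mimic, against 607, 449 and 363 TPM with scrambled miRNA. All 5 treated libraries lay above all 3 scrambled-miRNA libraries. Its log2 fold with exosomes was 1.31 (SE 0.24, edgeR adjusted p = 0.0295). Ugt2b37 (chr5:87240493-87254804, minus strand), of the same subfamily, was at 97.1, 104 and 89.5 TPM with exosomes and at 80.0 and 76.0 TPM with the mimic, against 61.9, 59.9 and 24.9 TPM with scrambled miRNA. Its groups did not overlap either, and the log2 fold with exosomes was 1.37 (SE 0.27, edgeR adjusted p = 0.0336). Ugt3a2 (chr15:9335550-9370955, plus strand), whose human counterpart transfers sugars other than glucuronic acid, was at 266, 326 and 250 TPM with exosomes and 338 and 343 TPM with the mimic, against 222, 195 and 112 TPM with scrambled miRNA. The log2 fold with exosomes was 1.04 (SE 0.24, edgeR adjusted p = 0.0440). Ugt3a1, the other member of its subfamily, was at 141, 215 and 147 TPM with exosomes and 199 and 172 TPM with the mimic, against 125, 112 and 37.5 TPM with scrambled miRNA. It missed the threshold with exosomes (log2 fold 1.23, SE 0.34, edgeR adjusted p = 0.0689), and was called without scrambled-miRNA library 3 (0.89, edgeR adjusted p = 0.0431).

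The start regions of the Ugt2b pair are shown because both genes were called together and lie on the same chromosome. The windows run from 250 bases before to 50 after the annotated start (RefSeq, GRCm38.p6), written along the gene's strand, at chr5:87254739-87255038 for Ugt2b37 and chr5:87424154-87424453 for Ugt2b38. Capitals mark a match to TGANTCA, a pattern made from the AP-1 motif that allows any base (N) at its centre. The match begins 180 bases upstream of the start in Ugt2b37 and 166 in Ugt2b38. Its centre base is C in Ugt2b37 and A in Ugt2b38, so the pair does not carry the same letters.
Ugt2b37: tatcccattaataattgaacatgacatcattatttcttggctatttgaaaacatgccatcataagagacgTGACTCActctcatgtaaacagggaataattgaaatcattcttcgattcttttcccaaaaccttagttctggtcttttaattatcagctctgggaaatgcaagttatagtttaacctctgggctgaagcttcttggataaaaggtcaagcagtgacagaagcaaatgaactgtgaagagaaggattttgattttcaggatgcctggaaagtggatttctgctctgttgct
Ugt2b38: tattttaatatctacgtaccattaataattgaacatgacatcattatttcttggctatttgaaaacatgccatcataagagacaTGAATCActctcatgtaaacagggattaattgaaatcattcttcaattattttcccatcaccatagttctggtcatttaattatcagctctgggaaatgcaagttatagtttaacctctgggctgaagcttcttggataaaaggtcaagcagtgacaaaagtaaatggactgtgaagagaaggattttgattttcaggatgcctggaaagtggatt
The windows were 86.9% identical when aligned, with 273 identical, 13 mismatched and 28 gapped positions. Searched on both strands, this pattern occurs in 7.81% of all 32851 RefSeq windows of this length and in 10 of 89 member windows. A match thus describes the letters and no binding.

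Reads of this pair are hard to separate from each other and from Ugt2b5. Of the 31-base words in their annotated transcripts, 52.9% in Ugt2b38 and 34.4% in Ugt2b37 occurred in another gene as well. With the reads of Ugt2b5, Ugt2b37 and Ugt2b38 added together, the sum had a log2 fold of 1.32 with exosomes (SE 0.24, edgeR adjusted p = 0.0290). The sum of Ugt3a1 and Ugt3a2 had a log2 fold of 1.09 (SE 0.26, edgeR adjusted p = 0.0482).

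The UGT1A genes, known for bilirubin and phenol conjugation, were not among the calls. Together they summed to 251, 238 and 206 TPM with exosomes, to 347 and 239 TPM with the mimic, and to 412, 270 and 239 TPM with scrambled miRNA. These genes share their last exons, and 53.0% to 84.2% of their 31-base words were shared. With their reads added together, the log2 fold with exosomes was 0.03 (SE 0.15, edgeR adjusted p = 0.932). Ugt1a10, the most abundant of them, was at 113, 83.7 and 79.7 TPM with exosomes and 136 and 82.8 TPM with the mimic, against 178, 128 and 101 TPM with scrambled miRNA.

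**Figure D1:**
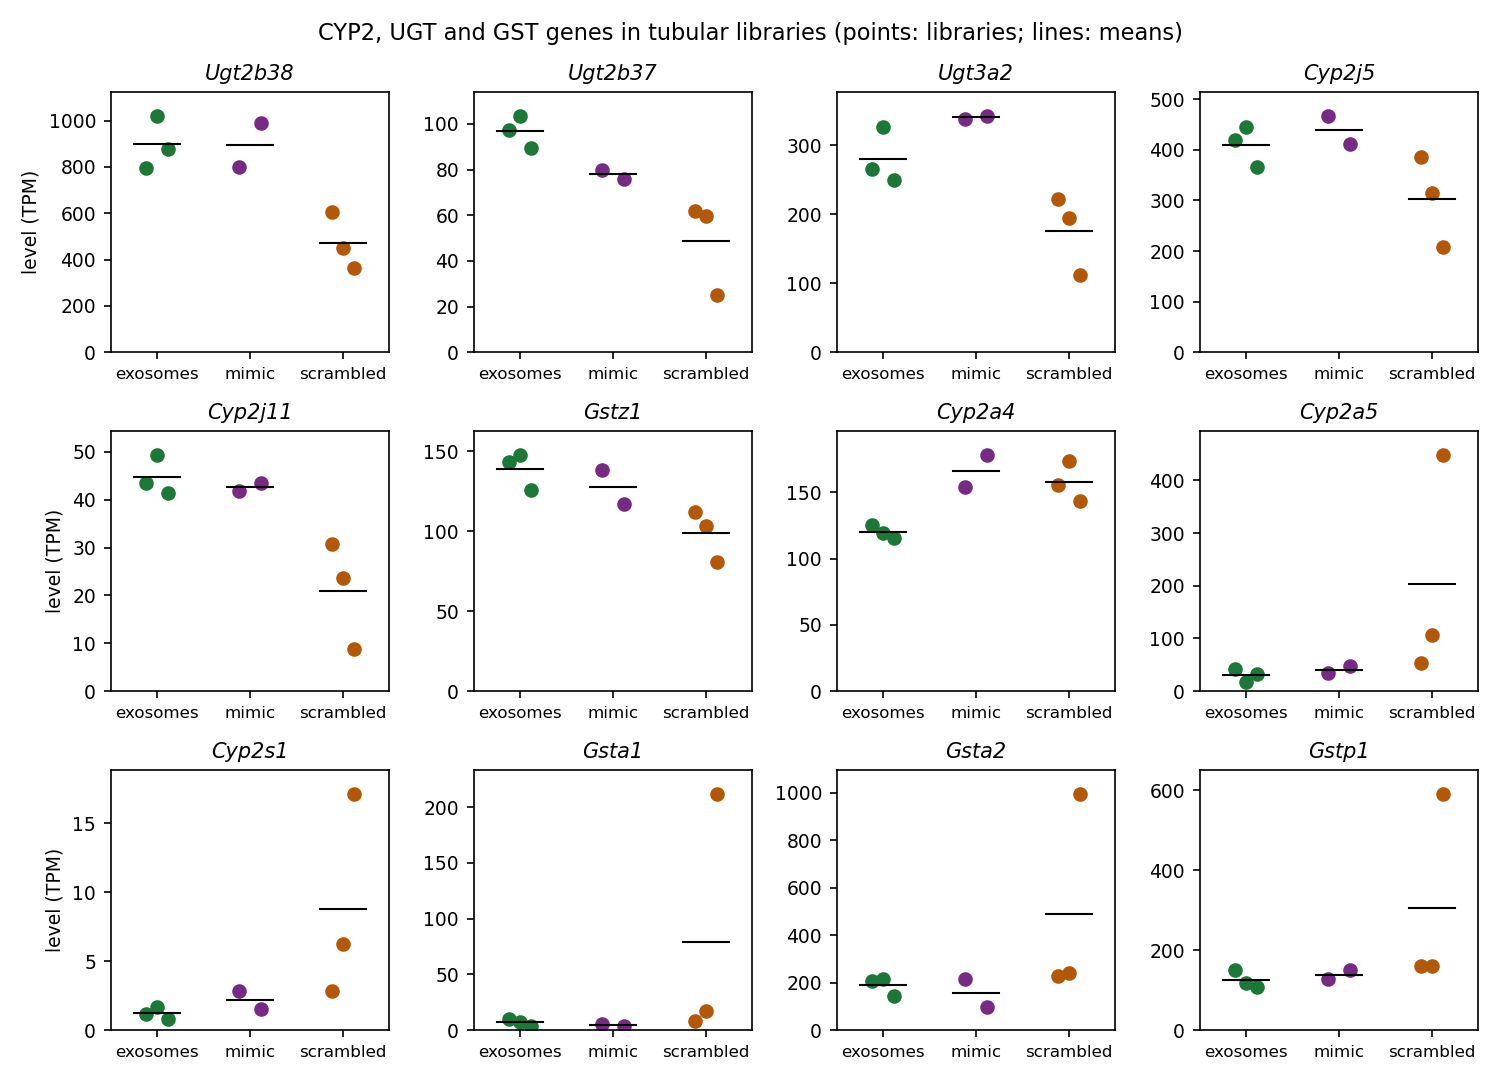
Levels (TPM) of 12 members in the 8 tubular libraries, by treatment, with points for libraries and lines for group means. In the first 6 panels every exosome library lies above the scrambled-miRNA libraries except for Cyp2j5, and in the panels of Cyp2a5, Gsta1, Gsta2 and Gstp1 a single scrambled-miRNA library, number 3, stands far above the rest (449, 212, 996 and 591 TPM).

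Both CYP2 genes called belong to the Cyp2j subfamily, known for epoxidation of arachidonic acid. Cyp2j5 (chr4:96628773-96664154, minus strand), abundant in mouse kidney, was at 419, 445 and 367 TPM with exosomes and 468 and 412 TPM with the mimic, against 386, 314 and 209 TPM with scrambled miRNA. One exosome library lay below the highest scrambled-miRNA library, and the log2 fold was 0.81 (SE 0.19, edgeR adjusted p = 0.0484). Cyp2j11 (chr4:96294508-96348662, minus strand), of the same subfamily, was at 43.6, 49.4 and 41.4 TPM with exosomes and 41.8 and 43.4 TPM with the mimic, against 30.7, 23.5 and 8.87 TPM with scrambled miRNA. Its log2 fold was 1.48 (SE 0.32, edgeR adjusted p = 0.0405). Cyp2j13 was at 103, 89.7 and 102 TPM with exosomes and 136 and 141 TPM with the mimic, against 94.0, 64.2 and 34.2 TPM with scrambled miRNA, and missed the threshold (log2 fold 1.05, edgeR adjusted p = 0.0548). Cyp2e1, the ethanol- and acetaminophen-oxidising P450 and the most abundant CYP2 gene, was at 449, 577 and 476 TPM with exosomes and 692 and 816 TPM with the mimic, against 578, 321 and 161 TPM with scrambled miRNA. Its exosome and scrambled-miRNA libraries overlapped, and it was not called (log2 fold 0.92, edgeR adjusted p = 0.128, and 0.61 without scrambled-miRNA library 3, edgeR adjusted p = 0.153).

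Gstz1 (chr12:87147165-87164723, plus strand), which isomerises maleylacetoacetate in tyrosine breakdown, was the GST gene called. It was at 144, 148 and 126 TPM with exosomes and 138 and 117 TPM with the mimic, against 112, 104 and 80.8 TPM with scrambled miRNA. Its log2 fold with exosomes was 0.85 (SE 0.15, edgeR adjusted p = 0.0280). Gstt2, of the theta class, was at 180, 206 and 165 TPM with exosomes and 166 and 174 TPM with the mimic, against 132, 155 and 144 TPM with scrambled miRNA, without a call (log2 fold 0.71, edgeR adjusted p = 0.0802).

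These 6 calls depended on single libraries. Leaving out any exosome library, or scrambled-miRNA library 2, left 0 members called. Among all genes, 12, 1 and 1 were then called without exosome library 1, 2 or 3, and 85 without scrambled-miRNA library 2. Without scrambled-miRNA library 1 there were 12 member calls, 8 higher and 4 lower, of 1005 genes called in all. Without library 3 there were 8 member calls, all higher, of 1335 genes called in all. In that last fit the 6 genes named above stayed called by edgeR, with log2 folds of 1.21 for Ugt2b38, 1.08 for Ugt2b37, 0.83 for Ugt3a2, 0.64 for Cyp2j5, 1.14 for Cyp2j11 and 0.77 for Gstz1. Leaving out mimic library 1 or 2, which share the estimate of spread, gave 3 and 2 calls. The log2 folds themselves stayed between 1.20 and 1.47 for Ugt2b38 and between 0.77 and 0.92 for Gstz1 over these 8 fits. With an offset for transcript length 0 members were called, of 48 genes called in all.

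A second set of members ran the other way, with values highest in scrambled-miRNA library 3. edgeR called none of it with all libraries in, while DESeq2 called Cyp2a5 (log2 fold -2.81, adjusted p = 0.0267) and Cyp2s1 (-2.10, adjusted p = 0.000961). Without scrambled-miRNA library 1, edgeR called Cyp2a5 (-3.31, adjusted p = 0.0255), Cyp2s1 (-2.53, adjusted p = 0.0108), Gsta1 (-4.30, adjusted p = 0.0359) and Gstm5 (-1.08, adjusted p = 0.0222). Cyp2a5, a coumarin hydroxylase, was at 42.3, 16.7 and 32.0 TPM with exosomes and 33.7 and 47.6 TPM with the mimic, against 53.4, 107 and 449 TPM with scrambled miRNA. Its groups did not overlap (exosome log2 fold -2.80, SE 0.78, edgeR adjusted p = 0.0689), and without scrambled-miRNA library 3 the log2 fold was -1.20 (edgeR adjusted p = 0.0908). Cyp2s1, a P450 best known outside the liver, was at 1.20, 1.65 and 0.820 TPM with exosomes and 2.81 and 1.53 TPM with the mimic, against 2.85, 6.26 and 17.2 TPM with scrambled miRNA. Its exosome log2 fold was -2.09 (edgeR adjusted p = 0.0520), and -1.26 without that library. Gsta1, an alpha class GST, was at 10.1, 7.35 and 3.94 TPM with exosomes and 5.42 and 3.30 TPM with the mimic, against 8.43, 17.2 and 212 TPM with scrambled miRNA. Its libraries overlapped, with an exosome log2 fold of -3.72 (edgeR adjusted p = 0.0953) and -0.56 without library 3. Gsta2 was at 207, 217 and 142 TPM with exosomes and 215 and 98.9 TPM with the mimic, against 227, 242 and 996 TPM with scrambled miRNA. Its exosome log2 fold was -1.17 (edgeR adjusted p = 0.174), and -0.29 without library 3. Gstm5 was at 211, 127 and 173 TPM with exosomes and 137 and 118 TPM with the mimic. With scrambled miRNA it was at 199, 394 and 437 TPM, so its exosome and scrambled-miRNA libraries overlapped. Its exosome log2 fold was -0.74 by DESeq2 (adjusted p = 0.105), and -0.45 by edgeR without library 3 (adjusted p = 0.359). The whole GST family summed to 1173, 1071 and 939 TPM with exosomes and 1112 and 970.0 TPM with the mimic, against 1185, 1326 and 2823 TPM with scrambled miRNA. Scrambled-miRNA library 1 lay just above the highest exosome library. The injured tubule markers were also highest in scrambled-miRNA library 3, and their part in these values was not tested.

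Gsta1 and Gsta2 can hardly be told apart by reads: 92.9% of the 31-base words of Gsta1 and 60.7% of those of Gsta2 occurred in another gene. With the reads of Gsta1, Gsta2 and Gm3776 added together, the exosome log2 fold was -1.90 (SE 0.70, edgeR adjusted p = 0.134).

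Cyp2a4, a steroid hydroxylase, is the closest relative of Cyp2a5 among the members, and their levels differed in pattern. Cyp2a4 was at 126, 119 and 115 TPM with exosomes and 154 and 178 TPM with the mimic, against 155, 173 and 144 TPM with scrambled miRNA. Cyp2a5 made up 25.2%, 12.3% and 21.7% of the sum of both with exosomes and 17.9% and 21.1% with the mimic, against 25.6%, 38.1% and 75.8% with scrambled miRNA. In endothelial libraries its part was 44.4%, 30.99% and 21.9% with exosomes and 23.0% and 23.5% with the mimic, against 63.5%, 74.0% and 80.7% with scrambled miRNA. Treated and scrambled-miRNA libraries did not overlap in either cell type, though tubular exosome library 1 lay just below the lowest scrambled-miRNA value. The start regions of both genes are shown because they are almost the same where the levels are not. They lie at chr7:26306942-26307241 for Cyp2a4 and chr7:26835089-26835388 for Cyp2a5 (RefSeq, GRCm38.p6, plus strand). Capitals mark GTTAAT, a core known for the tubule factor HNF1, which begins 160 bases upstream in Cyp2a4 and 161 in Cyp2a5.
Cyp2a4: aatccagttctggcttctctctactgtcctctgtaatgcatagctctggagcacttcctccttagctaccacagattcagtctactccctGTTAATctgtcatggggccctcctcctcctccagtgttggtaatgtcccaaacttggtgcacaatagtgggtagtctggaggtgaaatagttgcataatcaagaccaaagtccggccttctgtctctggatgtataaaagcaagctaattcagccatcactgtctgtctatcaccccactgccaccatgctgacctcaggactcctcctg
Cyp2a5: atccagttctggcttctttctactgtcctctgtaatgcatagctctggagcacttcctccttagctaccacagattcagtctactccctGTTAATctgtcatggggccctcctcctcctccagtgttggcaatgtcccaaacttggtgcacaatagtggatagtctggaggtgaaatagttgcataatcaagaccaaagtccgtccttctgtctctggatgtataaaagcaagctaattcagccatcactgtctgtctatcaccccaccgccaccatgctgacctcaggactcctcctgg
The windows were 97.7% identical when aligned, with 294 identical, 5 mismatched and 2 gapped positions. Searched on both strands, GTTAAT occurs in 7.10% of all windows and in 13 of 89 member windows. The transcripts share words too, 58.9% of those of Cyp2a4 and 54.6% of those of Cyp2a5, so the split between them rests on the remaining sequence. With their reads added together the tubular exosome log2 fold was -0.68 (SE 0.32, edgeR adjusted p = 0.227).

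With the mimic in tubular cells, 0 of 52 members were called against scrambled miRNA, beside 0.0201% of all genes (edgeR, 0.0134% higher and 0.00671% lower). Here 22 members had an unadjusted p under 0.05, beside 2427 of all 14913 genes. DESeq2 called 11 members, 9 higher and 2 lower, of 773 genes called in all. The members with the lowest adjusted p were Cyp2j13 (log2 fold 1.38, SE 0.29), Ugt3a2 (1.15, SE 0.26) and Ugt2b38 (1.15, SE 0.26), all at an edgeR adjusted p of 0.123. The mimic was also set against exosomes, where edgeR called 0 of 52 members, beside 0% of all genes. An unadjusted p under 0.05 was found for 2 members, beside 1848 of all genes. DESeq2 called 0 members, of 238 genes called in all. The median log2 fold of the members between mimic and exosomes was 0.00, within a range from -0.97 for the lowest to 1.66 for the highest. Cyp2b10, the classic target of the constitutive androstane receptor, was the highest there, on few reads (65 and 69.6 with the mimic, against 13, 8 and 11 with exosomes), with an edgeR adjusted p of 0.319. The mimic and exosome comparisons share the scrambled-miRNA libraries.

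The deposited tables give the injury itself. In the authors' deposited table of untreated injury over sham in tubular cells, 15 of 56 members with an adjusted p were past 0.05, 7 higher and 8 lower, beside 20.2% of all genes (11.5% higher and 8.65% lower). Most of those higher were GST genes in the authors' deposited table, Gsta1 (log2 fold 4.48), Gsta2 (2.50), Gstm5 (1.85) and Gsto1 (1.84), with Cyp2b10 (4.04), Cyp2a5 (1.35) and Cyp2s1 (1.20). Those lower in the authors' deposited table were CYP2 genes, Cyp2f2 (-1.81), Cyp2j7 (-1.80), Cyp2j11 (-1.13), Cyp2a4 (-0.90), Cyp2j5 (-0.82) and Cyp2j13 (-0.66), with Ugt3a1 (-1.31) and Ugt3a2 (-0.73). Some of these genes had few reads per tubular library of the treated groups: 3.3 to 39 for Cyp2f2, 1 to 15 for Cyp2j7 and 8 to 69.6 for Cyp2b10. No GST gene was lower and no UGT gene was higher at that threshold in the authors' deposited table. Beside these members, 8 of 9 injured tubule markers were higher and 5 of 12 proximal tubule markers lower in the same deposited table by the authors, and the part of either in the members' values was not tested.

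Untreated injury was also set against each treatment, with folds written as untreated injury over treated, so that a negative value means higher with treatment. Against exosomes, the authors' deposited table had 7 members higher in untreated injury and 11 lower, of 59, beside 30.9% of all genes (17.6% higher and 13.3% lower). Against the mimic, the authors' deposited table had 9 higher in untreated injury and 10 lower, of 58, beside 22.9% (14.1% higher and 8.78% lower). Cyp2j5 had -1.06 against exosomes and -1.04 against the mimic, Gstz1 had -0.92 and -0.69, Ugt2b38 -0.88 and -0.74, and Gstt2 -0.86 and -0.65 in the authors' deposited tables. Cyp2f2, known for activating naphthalene in airway cells, had -2.60 against exosomes and -1.24 against the mimic in the authors' deposited tables. It had only 3.3 to 39 reads per tubular library of the treated groups. Higher in untreated injury in the authors' deposited tables were Cyp2b10 (3.93 against exosomes and 3.15 against the mimic), Cyp2s1 (3.02 and 2.28), Gsta1 (2.12 and 2.55), Gsto1 (1.42 and 1.58) and Gstm5 (0.96 and 1.45). Beside these members, all 9 injured tubule markers were higher in untreated injury against both treatments in the authors' deposited tables. Against exosomes, 4 of 5 thick ascending limb markers were higher and 2 of 12 proximal tubule markers lower in the authors' deposited table. Against the mimic, all 5 podocyte and 5 of 10 endothelial markers were higher and 6 of 12 proximal tubule markers lower in the authors' deposited table. The part of these markers in the members' values was not tested. Against scrambled miRNA, the authors' deposited table had 3 higher in untreated injury and 3 lower, of 56, beside 17.8% of all genes (11.1% higher and 6.75% lower). Cyp2b10 (3.61), Cyp2d9 (1.73) and Gstm2 (1.64) were the higher ones, and Gstp2 (-1.36), Cyp2a4 (-0.86) and Gsta3 (-0.69) the lower ones in the authors' deposited table. Against scrambled miRNA, 4 of 5 thick ascending limb and 3 of 10 endothelial markers were higher in untreated injury in the authors' deposited table. So were 3 of 9 injured tubule and 1 of 5 podocyte markers in the authors' deposited table. There, 2 of 7 macrophage markers were lower and 0 of 12 proximal tubule markers passed the threshold in the authors' deposited table. The part of these markers in the values of Gstm2 and the other members was not tested. The tables share the untreated samples, and each stands for itself. Sizes of folds are not compared between the authors' deposited tables and the fits made here, since the tables' folds may have been shrunken.

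**Figure D2:**
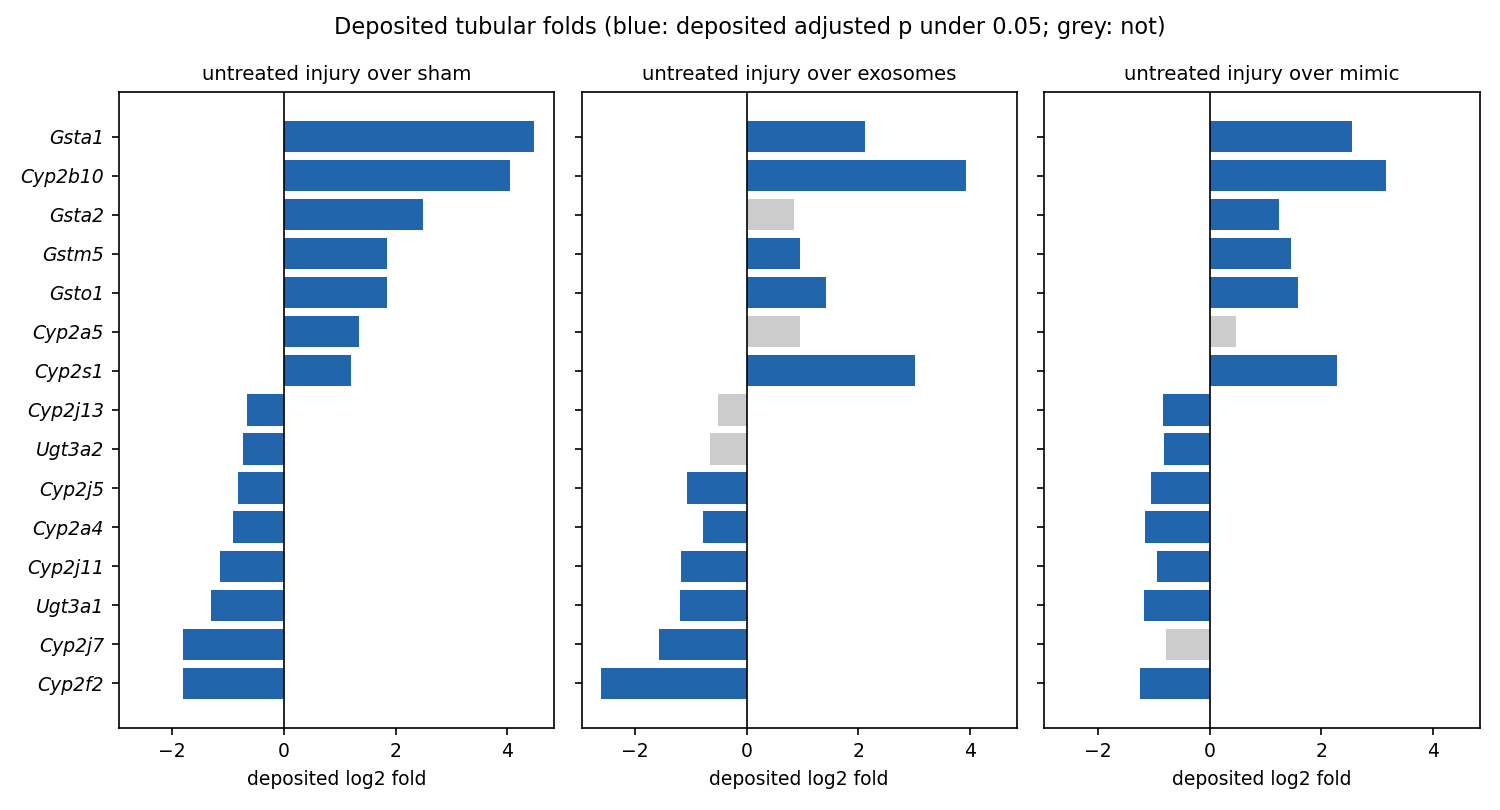
Deposited log2 folds in tubular cells for the 15 members past the threshold in untreated injury over sham, from 3 of the authors' deposited tables that share the untreated samples. Blue bars have a deposited adjusted p under 0.05. The members were picked on the first panel and all panels have the untreated samples on top of the fold, so likeness between panels is no result. Gsta1 has 4.48, 2.12 and 2.55 and Cyp2f2 -1.81, -2.60 and -1.24. Cyp2f2 and Cyp2j7 had few reads (3.3 to 39 and 1 to 15 per tubular library of the treated groups).

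Treated groups were also set against sham in the authors' deposited tables. With exosomes over sham in tubular cells, the authors' deposited table had 5 members higher and 2 lower, of 53, beside 11.2% of all genes (6.24% higher and 4.96% lower). These were Cyp2c69 (3.23), Gsta2 (1.19), Gsta3 (0.77), Ugt1a6a (0.70) and Gstz1 (0.50), and Gstm2 (-1.31) and Cyp2s1 (-1.23), in the authors' deposited table. Cyp2c69 rested on 2 to 21 reads per tubular library of the treated groups. With the mimic over sham, the authors' deposited table had 0 of 57 members past the threshold, beside 1.03% of all genes (0.0448% higher and 0.986% lower).

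In endothelial cells, 0 of 49 members were called in any comparison of the 3 treatments, beside 0% of all 16316 genes in each. With exosomes over scrambled miRNA, 15 members had an unadjusted p under 0.05, beside 1860 of all genes, edgeR called 0 and DESeq2 called 4. With the mimic over scrambled miRNA, 24 members had an unadjusted p under 0.05, beside 3176 of all genes. There edgeR called 0 and DESeq2 called 15 members, 5 higher and 10 lower. With the mimic over exosomes, 14 members had an unadjusted p under 0.05, beside 661 of all genes, edgeR called 0 and DESeq2 called 1. Without endothelial exosome library 1, which shares the estimate of spread, edgeR called 20 members between mimic and scrambled miRNA, 6 higher and 14 lower, of 1321 genes called in all. Without exosome library 2 or 3 it called 3 and 8 members. These last counts and the DESeq2 counts above stand without a count over all genes and show nothing particular to the members.

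The endothelial members nearest the threshold with the mimic went in both directions. Cyp2a5 was at 31.6, 9.66 and 2.53 TPM with exosomes and 3.39 and 3.30 TPM with the mimic, against 194, 82.5 and 234 TPM with scrambled miRNA. Its log2 fold with the mimic was -5.92 (SE 0.96, edgeR adjusted p = 0.0545), the lowest adjusted p among members, which it shared with Gsta2, Cyp2j6 and Gstt1. Gsta2 was at 60.5, 32.1 and 9.45 TPM with exosomes and 18.6 and 13.1 TPM with the mimic, against 191, 68.0 and 168 TPM with scrambled miRNA (mimic log2 fold -3.53, SE 0.66). Cyp2j6, of the Cyp2j subfamily, was at 8.29, 6.00 and 8.73 TPM with exosomes and 11.5 and 13.03 TPM with the mimic, against 5.88, 6.19 and 5.95 TPM with scrambled miRNA (mimic log2 fold 1.21, SE 0.18). Gstt1, of the theta class, was at 49.5, 47.8 and 61.3 TPM with exosomes and 60.2 and 82.2 TPM with the mimic, against 38.0, 35.7 and 29.7 TPM with scrambled miRNA (mimic log2 fold 0.96, SE 0.17). The treated and scrambled-miRNA libraries did not overlap for Cyp2a5, Gsta2 and Gstt1. The 9 injured tubule markers summed to 884 to 6166 TPM in endothelial exosome libraries and 934 to 1338 TPM in mimic libraries, against 9868 to 12782 TPM in scrambled-miRNA libraries, and their part in these values was not tested.

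All 13 endothelial UGT genes tested had a negative log2 fold with the mimic over scrambled miRNA, with a median of -2.84 beside 0.01 for all genes, and 7 of them had an unadjusted p under 0.05. They do not count separately, since the UGT1A genes share their last exons and the Ugt2b genes share reads. With the reads of near-copies added together, the log2 fold was -2.60 for UGT1A (edgeR adjusted p = 0.177). It was -1.73 for Ugt2b5, Ugt2b37 and Ugt2b38 (edgeR adjusted p = 0.336) and -1.42 for Ugt3a1 and Ugt3a2 (edgeR adjusted p = 0.389). Ugt1a1 had 37.1, 16.2 and 18.0 reads with scrambled miRNA, against 0 and 6.1 with the mimic. The UGT family summed to 840.1, 101 and 73.2 TPM with exosomes and 81.5 and 78.9 TPM with the mimic, against 620.5, 229.7 and 238 TPM with scrambled miRNA. Several cell type markers differed between the same libraries. The proximal tubule markers summed to 14507, 2414 and 1540 TPM with exosomes and 2029 and 1734 TPM with the mimic, against 8591, 4041 and 4642 TPM with scrambled miRNA. Without Kap the sums were 1654, 275 and 312 TPM with exosomes and 421 and 401 TPM with the mimic. With scrambled miRNA they were 920.2, 591 and 389.9 TPM, and mimic and scrambled miRNA overlapped. In those sums Aqp1 alone was 236 and 249 TPM with the mimic, against 138, 229 and 116 TPM with scrambled miRNA. Slc34a1 was at 75.2 and 65.3 TPM with the mimic, against 352, 151 and 106 TPM with scrambled miRNA. Slc5a2, Lrp2, Cubn, Miox, Slc22a6 and Slc22a8 were likewise lower in both mimic libraries, while Slc5a12, Slc7a13 and Slc22a30 overlapped. The thick ascending limb markers summed to 12471 to 13842 TPM with the mimic, against 3607 to 8263 TPM with scrambled miRNA, and the distal and collecting duct markers to 574 to 603 TPM with the mimic, against 159 to 214 TPM with scrambled miRNA.

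Set against the sum of all 12 proximal tubule markers, the UGT family was 4.35% to 8.12% in the 8 tubular libraries and 4.02% to 7.22% in the 8 endothelial libraries. Kap makes up most of that sum. Against the other 11 markers the UGT family was 36.2% to 97.4% in tubular and 19.4% to 67.4% in endothelial libraries. This alternative was chosen after seeing the data. Every share of the 11 markers given here includes Aqp1, at 83.1 to 249 TPM in endothelial and 84.7 to 252 TPM in tubular libraries. Shares without Aqp1 were not tested. The part of tubule RNA in the endothelial UGT values was not tested further.

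Gstm2, a mu class GST, was higher relative to the proximal tubule markers in every endothelial library than in any tubular one, with or without Kap. It was 0.0257% to 0.176% of the other 11 markers in tubular and 1.51% to 11.6% in endothelial libraries. Gsta4, which conjugates lipid aldehydes such as hydroxynonenal, was 0.0770% to 1.35% of the other 11 markers in tubular and 0.925% to 9.16% in endothelial libraries, and these ranges overlapped through tubular scrambled-miRNA library 3.

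**Figure D3:**
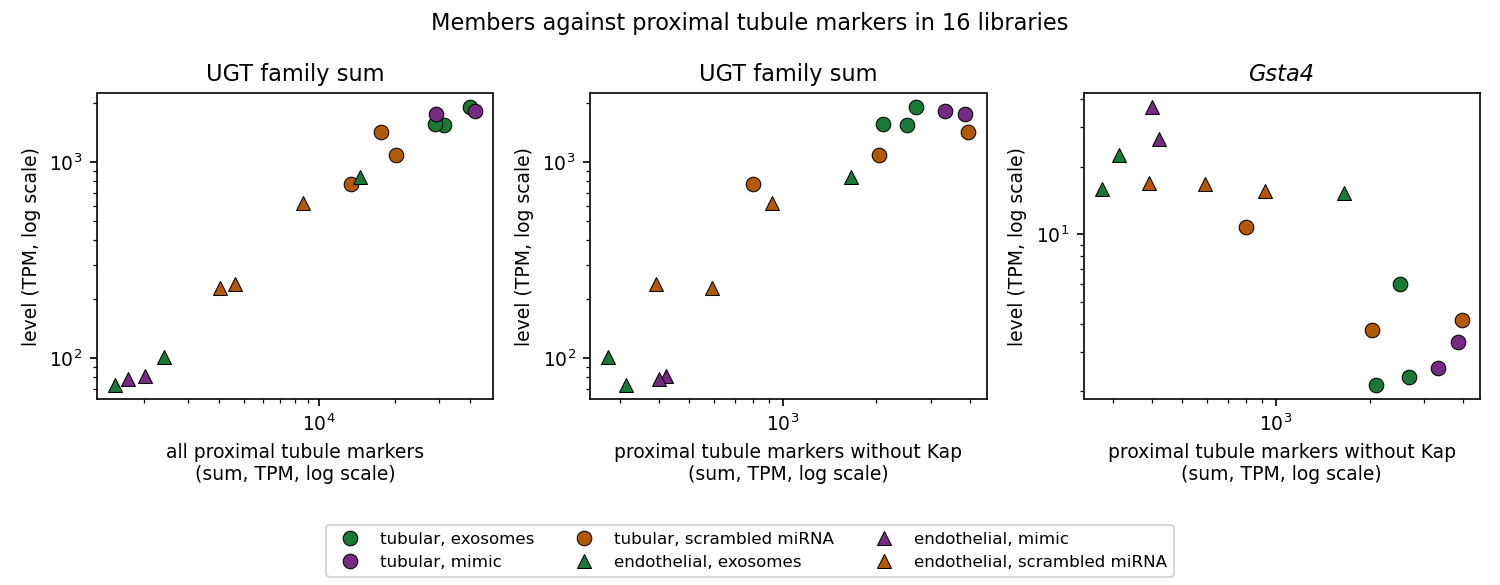
The UGT family sum (TPM, log scale) against the sum of all 12 proximal tubule markers and against the other 11 without Kap, and Gsta4 against the 11 (TPM, log scales), in the 16 libraries, with circles for tubular and triangles for endothelial cells, coloured by treatment. The UGT sum, from 73.2 to 1905 TPM, lies close to 1 line against the 12-marker sum, which is mostly Kap, and is more scattered against the 11, and Gsta4 is higher in endothelial libraries (15.3 to 36.7 TPM) than in tubular ones (2.14 to 10.8 TPM).

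Between the cell types, most members differed. Averaged over the 3 treatments, 48 of 54 members were called by edgeR, 40 higher and 8 lower in tubular cells, beside 66.2% of all 17143 genes (29.9% higher and 36.3% lower). The median log2 fold, tubular over endothelial, was 2.30 for the members and -0.06 for all genes. All 15 UGT genes tested were higher in tubular cells, with log2 folds from 1.30 (Ugt1a6a) to 4.07 (Ugt2b34). Ugt2b34 had 0 to 8 reads per endothelial library and 22 to 154 per tubular one. Ugt2a3 had 0 to 13 and 6 to 27. Both passed the low-count filter through tubular libraries, so their direction is no separate result. Many of the 15 share reads. With near-copies added together, the log2 folds were 2.47 for the UGT1A genes, 3.12 for Ugt2b5, Ugt2b37 and Ugt2b38, and 2.79 for Ugt3a1 and Ugt3a2. Of the CYP2 genes 14 were higher and 3 lower, and of the GST genes 11 were higher and 5 lower.

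The 8 members higher in endothelial libraries included 5 GST and 3 CYP2 genes. Gstm2 was at 3.16, 2.81 and 1.25 TPM with exosomes, 4.55 and 0.851 TPM with the mimic and 3.40, 2.37 and 1.40 TPM with scrambled miRNA in tubular cells. In endothelial cells it was at 25.1, 22.7 and 34.9 TPM with exosomes, 46.8 and 46.3 TPM with the mimic and 13.9, 26.9 and 19.7 TPM with scrambled miRNA (log2 fold -3.51, SE 0.29). The other log2 folds were -3.02 for Gsto2 (SE 0.57), -2.30 for Gsta4 (SE 0.27), -1.84 for Cyp2s1 (SE 0.28), -1.61 for Gsto1 (SE 0.26), -1.41 for Cyp2u1 (SE 0.24), -1.35 for Cyp2j6 (SE 0.14) and -0.50 for Gstt3 (SE 0.13). Gsto2 had 0 to 8 reads per tubular library and 7 to 81 per endothelial one, and passed the low-count filter through endothelial libraries. Its direction is thus no separate result, and its log2 fold ranged from -4.38 to -2.72 when 1 library was left out. Gsto1 and Gsto2 are omega class GST genes known for reducing dehydroascorbate, and Cyp2u1 hydroxylates long-chain fatty acids. All podocyte, macrophage, thick ascending limb and collecting duct or distal tubule markers, and 7 of 9 injured tubule markers, were also higher in endothelial libraries, with podocyte sums of 1.61 to 27.9 TPM in tubular and 188 to 340 TPM in endothelial libraries. Which cells of the endothelial preparation these 8 genes came from was not tested.

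**Figure D4:**
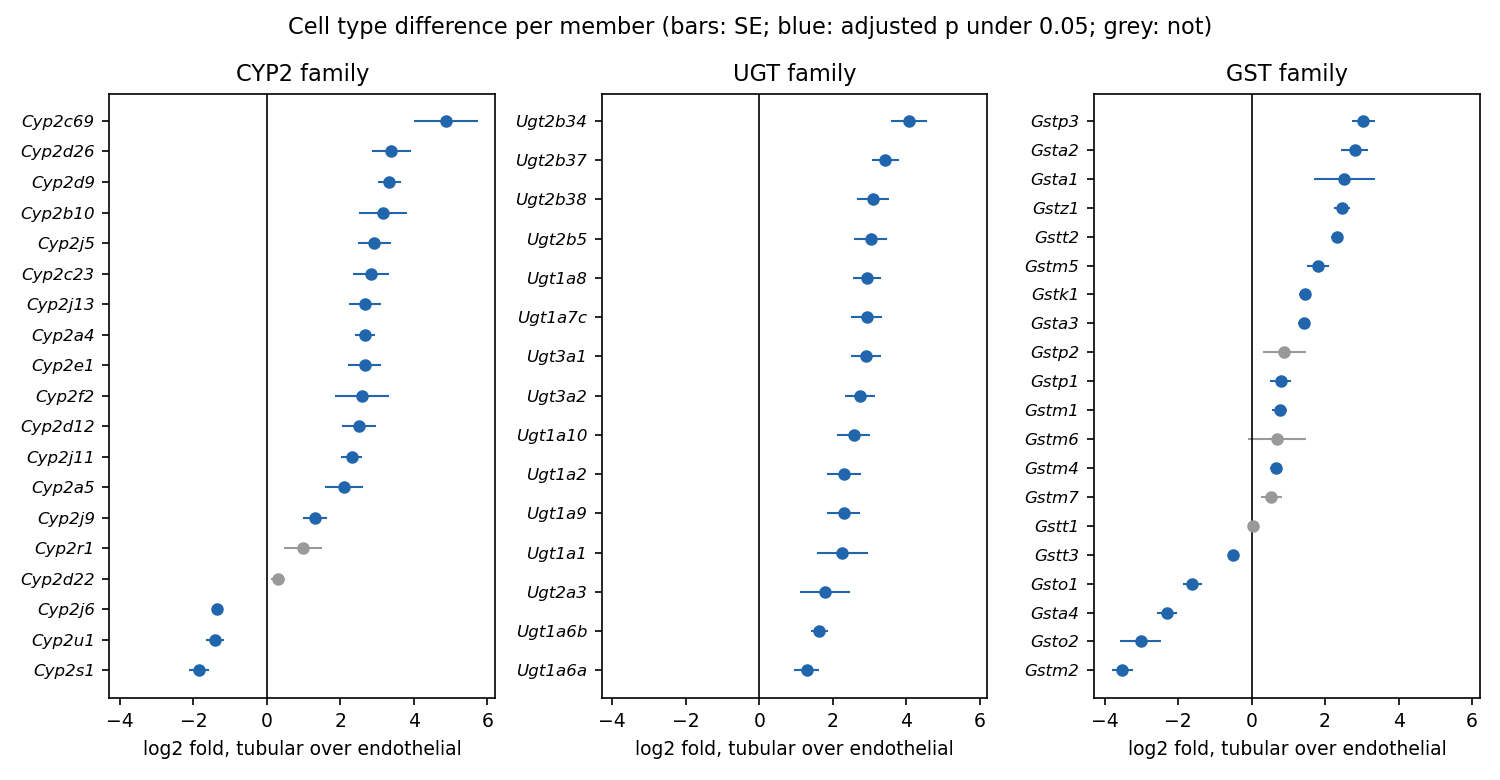
Log2 fold, tubular over endothelial cells, with its SE, for the 54 members tested, by family, from a fit of all 16 libraries averaged over the 3 treatments. Blue points are called by edgeR and grey ones are not. The UGT panel lies wholly to the right of 0, from 1.30 to 4.07, and the CYP2 and GST panels reach to -1.84 and -3.51 on the left. Ugt2b34, at 4.07, had 0 to 8 reads per endothelial library.

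Whether a treatment acted differently in the cell types was tested directly. For exosomes over scrambled miRNA, 0 of 54 members differed between tubular and endothelial cells by edgeR, beside 0% of all genes. The unadjusted p was under 0.05 for 5 members, beside 1333 of all 17143 genes, and DESeq2 called 0 members. For the mimic, edgeR called 0 of 54, beside 0% of all genes. Here 25 members had an unadjusted p under 0.05, beside 2650 of all genes, and DESeq2 called 7 members. That DESeq2 count stands without a count over all genes and shows nothing particular to the members. Cyp2j6 had the lowest adjusted p, with a difference of log2 folds, tubular minus endothelial, of -2.10 (SE 0.35, edgeR adjusted p = 0.0674). Without endothelial exosome library 1, edgeR called 6 members for exosomes, all with the higher log2 fold in tubular cells. For the mimic it called 13, of which 12 had the higher log2 fold in tubular cells. Over the fits that each left out 1 library, the most genes called in all were 76 for exosomes and 593 for the mimic.

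In the authors' deposited tables for endothelial cells, untreated injury over sham had 8 of 55 members past the threshold, 5 higher and 3 lower, beside 4.41% of all genes (3.30% higher and 1.11% lower). The higher ones in the authors' deposited table were Gsta1 (log2 fold 4.78), Cyp2a5 (2.70), Gsta2 (2.53), Cyp2s1 (1.30) and Gsto1 (1.29), all of which were also higher in the tubular table. The lower ones in the authors' deposited table were Cyp2j11 (-1.59), Ugt3a1 (-1.54) and Gstk1 (-0.93). All 9 injured tubule markers were higher in the same deposited table by the authors, and their part was not tested.

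Against the mimic in endothelial cells, the authors' deposited table had 31 members higher and 4 lower in untreated injury, of 56, beside 10.2% of all genes (6.46% higher and 3.78% lower). Of the UGT genes 14 of 15 were higher in untreated injury in the authors' deposited table, as were 10 of 12 proximal tubule and 6 of 9 injured tubule markers, while 4 of 5 thick ascending limb markers were lower. Gsta1 (6.62), Cyp2a5 (5.32) and Gsta2 (4.31) were among the highest and Gsto2 (-2.33), Gstm2 (-1.27), Gstt3 (-0.81) and Cyp2j6 (-0.66) were the lower ones in the authors' deposited table. Against exosomes, the authors' deposited table had 9 members higher in untreated injury and 1 lower, of 53, beside 3.77% of all genes (1.83% higher and 1.95% lower). With exosomes over sham, the authors' deposited table had 2 members higher and 15 lower, of 54, beside 6.73% (3.35% higher and 3.37% lower). With the mimic over sham, the authors' deposited table had 4 higher and 30 lower, of 55, beside 11.6% (3.93% higher and 7.63% lower). In the authors' deposited table, 7 of 12 proximal tubule markers were lower with exosomes than in sham, and 11 of 12 with the mimic. Untreated injury over scrambled miRNA had 0 of 56 members past the threshold in the authors' deposited table, beside 0.757% of all genes (0.344% higher and 0.413% lower).

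The genes around these enzymes were read from lists of cofactor supply (10 genes), regulators (10), other xenobiotic enzymes (29), mercapturate formation (6) and efflux (8). In tubular cells with exosomes over scrambled miRNA, edgeR called 1 of 10 cofactor genes, 1 of 10 regulators, 2 of 25 other enzymes, 0 of 6 mercapturate genes and 1 of 8 efflux genes tested. Beside these, 5.13% of all 14913 genes were called (2.72% higher and 2.41% lower). Cyb5a, cytochrome b5, rose to 1137, 1318 and 1157 TPM with exosomes, against 1042, 820.5 and 811 TPM with scrambled miRNA (log2 fold 0.80, SE 0.19, edgeR adjusted p = 0.0484). Por, the reductase that feeds all CYP2 enzymes, was at 91.9, 103 and 99.7 TPM with exosomes and 188 and 193 TPM with the mimic, against 193, 120 and 89.8 TPM with scrambled miRNA, without a call. Cebpb, a stress-responsive transcription factor, fell to 4.94, 4.66 and 5.61 TPM with exosomes, against 13.3, 14.3 and 14.9 TPM with scrambled miRNA (log2 fold -1.25, SE 0.19, edgeR adjusted p = 0.0243). Sult1d1, a sulfotransferase, rose to 529, 497 and 510 TPM with exosomes, against 207, 358 and 224 TPM with scrambled miRNA (log2 fold 1.30, SE 0.27, edgeR adjusted p = 0.0357). Cyp4b1, a P450 of another family, rose too (log2 fold 1.14, SE 0.25, edgeR adjusted p = 0.0392), and Abcc4, an exporter of conjugates, fell (log2 fold -1.37, SE 0.32, edgeR adjusted p = 0.0456). Hnf4a, a regulator of many of these enzymes, was at 98.6, 114 and 106 TPM with exosomes and 170 and 118 TPM with the mimic, against 175, 101 and 78.8 TPM with scrambled miRNA, without a call. Nqo1, a classic target of the stress factor NRF2, was at 64.7 TPM in scrambled-miRNA library 3 and between 13.3 and 22.2 TPM in the other 7 tubular libraries.

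In the mimic comparison in tubular cells, and in all endothelial treatment comparisons, no gene of these 5 lists was called by edgeR. In the authors' deposited table of untreated injury over sham in tubular cells, 2 of 6 mercapturate genes, 2 of 10 cofactor genes and 1 of 8 efflux genes were lower and none higher. Other xenobiotic enzymes were lower for 6 and higher for 1 of 27, and regulators lower for 1 and higher for 2 of 10, in the authors' deposited table, beside 8.65% of all genes lower and 11.5% higher. Between the cell types, all 6 mercapturate genes and 9 of 10 cofactor genes were higher in tubular cells and none lower by edgeR, beside 29.9% of all genes higher and 36.3% lower. Other enzymes were higher for 20 and lower for 6 of 27, regulators higher for 5 and lower for 4 of 10, and efflux genes higher for 4 and lower for 3 of 8.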

How the data were processed

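Libraries were made from poly(A) RNA, per the labels' protocols. The submitters' processing notes name Salmon 0.13.1, DESeq2 and the build GRCm38 without settings. Estimated counts per transcript were deposited by the authors unnormalized, and TPM values were deposited beside them, per the file headers. Base means, a signal averaged over libraries, were deposited by the authors as normalized counts and were not tested. The log2 folds, p-values and adjusted p-values of the 12 comparison tables are the authors' deposited values. Transcripts (136202) were summed to genes and the estimated counts rounded to whole numbers. Of 53392 genes, 53355 matched GENCODE M21 by ID, 52175 with the same version. Each cell type, and both together, was fitted with edgeR 4.0.16 in R 4.3.3: TMM, filterByExpr (minimum count 10, minimum total 15), quasi-likelihood F tests, and Benjamini-Hochberg adjustment over all genes at 0.05. DESeq2 1.42.0, no filter, other scaling, a length offset, a replicate block, fewer groups and leaving out each library were alternatives. Near-copies were also summed, an alternative chosen after seeing the data. The scripts were tested on simulated data. Shared 31-base words were counted over GENCODE M21 transcripts, and 79 members had a RefSeq start window.

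The direction of the deposited folds was checked against each other and against the fits made here (r across genes 0.662 to 0.881). No 2 libraries of a group agreed within sampling noise (chi-square per degree of freedom of at least 14.1). The depth limits what low members can show. The members, lists and rules were chosen with earlier results of these data known. Named members were those called in a treatment comparison or interaction, the most abundant 4 in tubular and 3 in endothelial cells per family, the 3 largest deposited injury folds per family and cell type, and the 2 largest cell type folds each way per family. Genes outside this rule that the text names were chosen after their values were seen. The design gives 2 mimic libraries per cell type, while the extraction notes speak of 3 mice per group.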

Additional observations from a re-analysis of the deposited data

How the results depend on the processing

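The 103 member results followed here are those of named members with an unadjusted p under 0.05 by edgeR in the main fit. Results with a higher p were left out, so few reversals could occur. None of the 103 changed direction. Of 1786 alternative values for 103 member results, 1608 kept their side of the threshold, 131 passed it newly and 47 no longer passed it, and 9 for which DESeq2 gave no adjusted p were left out. DESeq2 called 13 members in tubular exosomes over scrambled miRNA, 11 in tubular mimic over scrambled miRNA, 4, 15 and 1 in endothelial exosomes and mimic over scrambled miRNA and mimic over exosomes, and 7 in the mimic interaction. Without the low-count filter the member calls were 21, 20 and 1 in the tubular comparisons, of 2014, 1354 and 396 genes called in all. These are exosomes and mimic over scrambled miRNA and mimic over exosomes. The endothelial comparisons, in the same order, had 15, 29 and 19 member calls, and the exosome and mimic interactions 4 and 26. The cause was not tested. An offset for transcript length left 0 members and 48 genes in tubular exosomes over scrambled miRNA. With only the groups compared, 3 members were called there, of 453 genes called in all, against 21 members in endothelial mimic over scrambled miRNA. The endothelial and interaction counts of this paragraph stand without a count over all genes and show nothing particular to the members.

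Leaving out 1 library at a time gave 0 to 12 members in tubular exosomes over scrambled miRNA, 0 to 4 in tubular mimic over scrambled miRNA, 0 to 20 in endothelial mimic over scrambled miRNA, 46 to 49 between the cell types, 0 to 6 in the exosome interaction and 0 to 13 in the mimic interaction. It gave 0 to 0 in tubular mimic over exosomes and in endothelial exosomes over scrambled miRNA and mimic over exosomes. Where 1 mimic library is left, it is assumed to vary like the other groups.

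Libraries share replicate numbers across groups, but the labels do not say what a number marks, and their deviations correlated at -0.11 to 0.23, not above 0.1 in every pair, so the numbers were not taken as pairs. With the replicate block, 4 members of 286 genes called were in tubular exosomes over scrambled miRNA, 11 of 661 in endothelial mimic over scrambled miRNA, 48 between the cell types and 0 in the other comparisons and interactions.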
